A study of Mus musculus with 5 samples.

Results

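The homeodomain-interacting protein kinases examined here are Hipk1, Hipk2 and Hipk3, 3 of the 49315 genes counted in each of 5 mouse heart libraries. They were chosen by symbol with their values in these libraries already known, and the comparison that led to the choice is the one between diets. Their differences between diets are therefore described and not tested. The hearts, labelled as whole, came from mice kept for 18 weeks on standard chow or on a diet high in fat and sucrose (HFHS). Every mouse of both groups had received intravenous iron dextran, an iron and sugar-polymer complex, as a single dose 48 hours before the heart was perfused with buffered saline and frozen. There were 3 HFHS libraries and 2 chow libraries of poly-A enriched RNA. The sources used here do not give strain, sex or age. Since both groups received iron, no effect of iron was measured. The labels do not state that each library is a different mouse. P-values therefore measure the spread between these libraries, which may be technical.

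Homeodomain-interacting protein kinases are serine/threonine kinases of the nucleus, related to the DYRK kinases, and were first found as partners of homeodomain transcription factors. They phosphorylate transcription factors and corepressors, and HIPK2 is known for phosphorylating p53 after severe DNA damage. HIPK2 protein is held low in unstressed cells by ubiquitin ligases, so the amount of transcript does not by itself give the amount of kinase. In mouse heart muscle cells Hipk2 has been linked to basal contractile function through ERK signalling.

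All 3 genes lie on the minus strand of their chromosomes in GRCm38, and the files give each the same start and end as GENCODE M21. Hipk1 (ENSMUSG00000008730) is on chromosome 3 from 103739815 to 103791563, spans 51.7 kb and has an exon length of 10914 bases, the merged length of all its annotated exons. Hipk2 (ENSMUSG00000061436) is on chromosome 6 from 38694390 to 38876165. It has the longest span of the 3, 181.8 kb, of which its 8836 exonic bases are 4.86%. Hipk3 (ENSMUSG00000027177) is on chromosome 2 from 104426481 to 104494446, spans 68.0 kb and has 7987 exonic bases. The exon lengths thus differ less than the spans do. Coding sequence made up 34.4% of the exonic bases of Hipk1, 40.6% of those of Hipk2 and 45.6% of those of Hipk3, and the untranslated region after the last coding base made up 37.9%, 42.4% and 42.3%.

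The members are paralogs, so the sequence that their transcripts share sets how far reads could be confused between them. The longest exact run shared by each pair of GENCODE transcript sets is printed here in the direction of transcription.

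Hipk1 and Hipk2: taccgagtgaaggtcattgactttggttc

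Hipk1 and Hipk3: gctgatgagtataactttgt

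Hipk2 and Hipk3: gcctatgagtgcttccagcac

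These runs are 29, 20 and 21 bases long. Each lies in the coding part of exon 2 of both genes. The run of Hipk1 and Hipk2 is at 103777279 to 103777307 on chromosome 3 and at 38818287 to 38818315 on chromosome 6. The run of Hipk1 and Hipk3 is at 103777543 to 103777562 on chromosome 3 and at 104471070 to 104471089 on chromosome 2. The run of Hipk2 and Hipk3 is at 38818526 to 38818546 on chromosome 6 and at 104471045 to 104471065 on chromosome 2. No window of 50 bases was shared between Hipk1, Hipk2, Hipk3 and the fourth family gene, Hipk4. Windows of 50 bases found in a transcript of any other gene, on either strand, were 5.33% of those of Hipk1, 4.77% of those of Hipk2 and 0.386% of those of Hipk3. For Hipk1 they came almost wholly from the antisense gene Gm15886, which shares 729 exonic bases with it and had 0 to 2 counts per library. For Hipk2 they came from 1 stretch at 38697642 to 38698113 on chromosome 6 that matches Ubn2, a gene further along the same chromosome. Ubn2 was at 31.6 and 33.8 CPM (counts scaled to a common library size, adjusted by the TMM method) in chow libraries and at 39.3 to 50.1 CPM in HFHS libraries. For Hipk3 they came from the microRNA gene Mir1902, which lies within its exons and had 0 counts in every library. The read length and the handling of multi-mapping reads were not given in the sources used here. No exon of another gene overlapped an exon of Hipk2 in the files. The span of Tbxas1, on the opposite strand, crosses the start of Hipk2 without sharing exonic bases, and Tbxas1 was at 3.17 and 4.11 CPM in chow libraries and at 1.87 to 2.37 CPM in HFHS libraries.

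The promoters of the 3 genes also differed. The 250 bases before the first start listed by RefSeq (GRCm38.p6) are printed here, 5′ to 3′ on the minus strand, with CpG dinucleotides in capitals because their density is what separates them.

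Hipk1, chr3:103791562-103791811: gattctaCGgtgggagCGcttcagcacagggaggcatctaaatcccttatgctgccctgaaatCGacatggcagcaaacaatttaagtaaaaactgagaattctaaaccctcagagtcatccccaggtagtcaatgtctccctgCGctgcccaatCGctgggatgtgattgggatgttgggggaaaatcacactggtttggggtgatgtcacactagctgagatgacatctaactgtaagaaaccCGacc

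Hipk2, chr6:38876191-38876440: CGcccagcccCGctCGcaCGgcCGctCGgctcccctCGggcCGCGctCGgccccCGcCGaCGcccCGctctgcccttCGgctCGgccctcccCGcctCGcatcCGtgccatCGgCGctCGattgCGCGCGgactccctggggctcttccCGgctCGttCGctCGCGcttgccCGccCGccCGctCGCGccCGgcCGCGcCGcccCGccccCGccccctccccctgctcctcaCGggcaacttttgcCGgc

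Hipk3, chr2:104494490-104494739: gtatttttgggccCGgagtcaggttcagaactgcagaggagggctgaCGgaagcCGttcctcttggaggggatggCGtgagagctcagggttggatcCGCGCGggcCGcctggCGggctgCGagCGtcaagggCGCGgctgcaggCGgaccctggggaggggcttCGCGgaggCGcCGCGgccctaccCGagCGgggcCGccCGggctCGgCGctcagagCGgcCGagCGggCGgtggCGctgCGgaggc

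The Hipk2 window held 43 CpG dinucleotides and was 80.8% G and C, and 99.3% of the 32851 RefSeq windows of the same length held fewer. The Hipk3 window held 31 and was 74.0% G and C. The Hipk1 window held 6, which is also the median over all windows, and was 48.8% G and C. A second start listed for Hipk1 lies downstream of the first, and the 250 bases before it, which hold 24, overlap the first annotated exon. The window before a second start of Hipk2, within its span, held 1. The GC box GGGCGG, searched on both strands, matched at 5 positions, some of which can overlap, in the Hipk2 window, at 2 in the Hipk3 window and at none in the Hipk1 window. It occurs in 32.7% of all windows. CACGTG, the E-box (6.02% of all windows), and TGACGTCA, the cAMP response element (1.55%), matched none of the 3. Nor did a form of the MEF2 element (0.103%) or the direct repeat bound by PPAR receptors (0.0335%). These are matches of letters and not sites of binding.

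Facts of the whole series bear on what follows. Library totals ran from 14362766 to 17774735 counts. Summed marker levels are given as CPM on library totals, without the TMM adjustment. Markers of heart muscle cells were abundant, with a summed level of 57810 to 65270 CPM over 10 genes. Of these, 4 rose and 4 fell in HFHS hearts by edgeR's quasi-likelihood test (Benjamini-Hochberg adjusted p of 0.05). All 9 macrophage markers, 8 of 8 fibroblast markers, 6 of 8 endothelial markers and 5 of 5 red blood cell markers fell. Of 7 pericyte and smooth muscle markers, 1 rose and 3 fell, and none of 4 tested nerve and glia markers passed. Over all 14221 tested genes, 19.4% rose and 18.7% fell. The summed macrophage level was 110.4 to 129.6 CPM in HFHS libraries and 254.0 to 275.1 CPM in chow libraries. For fibroblasts it was 1649 to 1662 against 2318 to 2392 CPM, for endothelium 1234 to 1260 against 2041 to 2247 CPM, and for red blood cells 250.2 to 523.7 against 1484 to 1699 CPM. Markers of fat were at 0.302 to 0.464 against 0 to 0.0577 CPM, and the skeletal muscle myosins Myh2 and Myh4 had 0 counts in every library. In these bulk samples, fewer cells of a type and less RNA per cell cannot be told apart, and the part of cell makeup in the HIPK values was not tested.

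Hipk2 was the member with the largest ratio between diets. Its level was 9.96 and 8.67 CPM in the 2 chow libraries and 57.0, 61.2 and 64.2 CPM in the 3 HFHS libraries. Every HFHS library was above both chow libraries, and the lowest HFHS value was 5.72 times the highest chow value. The means were 60.8 ± 3.60 CPM (SD, n = 3) and 9.31 ± 0.916 CPM (SD, n = 2), and the fitted difference was 6.52-fold, a log2 fold change of 2.70 (SE 0.107). It ranked 13 among the 14221 tested genes by log2 fold change. The counts behind it were 184 and 156 in chow libraries and 852 to 950 in HFHS libraries, so the 95% Poisson counting intervals of the chow values ran from 7.36 to 11.5 CPM. Such intervals cover counting error only.

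Hipk3, whose product binds the death-receptor adaptor FADD, was the most abundant member per exon length and the most even. It was at 193.8 and 192.0 CPM in chow libraries and at 280.5, 277.7 and 277.5 CPM in HFHS libraries. The groups did not overlap, and the spread within each was small, with a coefficient of variation of 0.602% in HFHS and 0.660% in chow libraries. The means were 278.6 ± 1.68 CPM and 192.9 ± 1.27 CPM, which differed 1.44-fold (log2 fold change 0.53, SE 0.0677).

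Hipk1, a nuclear kinase that acts on p53 and on the signalling partners Daxx and ASK1, had the smallest ratio. It was at 70.05 and 73.3 CPM in chow libraries and at 83.4, 85.7 and 89.2 CPM in HFHS libraries. The groups again did not overlap, and the lowest HFHS value was 1.14 times the highest chow value. The means were 86.1 ± 2.94 CPM and 71.7 ± 2.31 CPM, which differed 1.20-fold (log2 fold change 0.26, SE 0.0755). Hipk4, the family gene outside the chosen 3, had 8 to 21 counts per library. It was at 0.433 and 1.17 CPM in chow libraries and at 0.861 to 1.08 CPM in HFHS libraries. The groups overlapped, and the edgeR adjusted p was 0.690.

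All 3 members passed the edgeR threshold in the higher direction, as did 19.4% of the 14221 tested genes, while 18.7% passed in the lower direction (38.1% in all). In all 3 the groups did not overlap with HFHS higher, as in 29.2% of tested genes (58.5% in either direction). Since the members were chosen on this contrast, nothing is read from these counts.

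**Figure D1:**
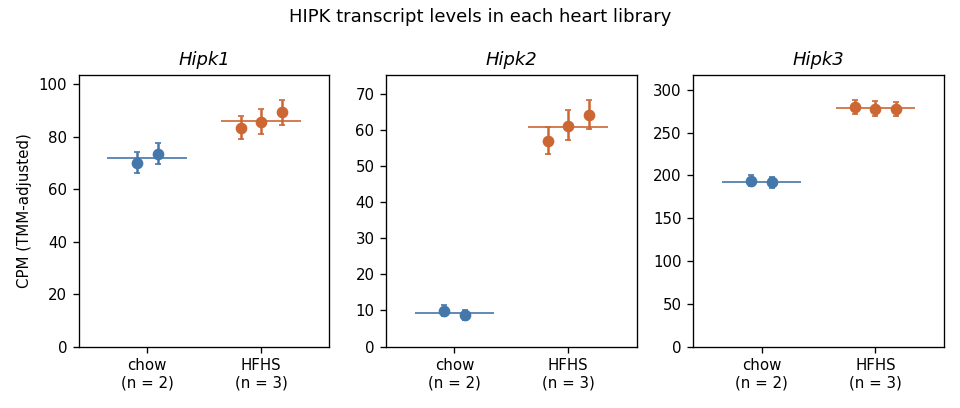
CPM of Hipk1, Hipk2 and Hipk3 (vertical axes from 0, 1 scale per gene) in each chow and HFHS library; points are libraries, bars are 95% counting intervals and lines are group means. HFHS libraries lie above chow libraries for each gene, with Hipk2 at 57.0 to 64.2 against 8.67 and 9.96 CPM.

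Levels can be compared between genes only per exon length, here as CPM per kilobase of exon (RPKM). In chow hearts the order was Hipk3 at 24.2 ± 0.163 RPKM, Hipk1 at 6.57 ± 0.211, Hipk2 at 1.05 ± 0.103 and Hipk4 at 0.219 ± 0.142 (SD, n = 2). In HFHS hearts it was Hipk3 at 34.9 ± 0.211 RPKM, Hipk1 at 7.89 ± 0.269, Hipk2 at 6.88 ± 0.408 and Hipk4 at 0.263 ± 0.0306 (SD, n = 3). The order was the same in both groups, and in neither group did the libraries of neighbouring genes overlap. Hipk1 and Hipk2 were closest in HFHS hearts, at 7.64 to 8.17 RPKM and 6.45 to 7.27 RPKM. Hipk1 stood at 5.69 and 6.85 times Hipk2 in the chow libraries and at 1.13 to 1.18 times Hipk2 in the HFHS libraries. The summed level of the 3 members was 31.82 and 31.74 RPKM in chow libraries and 49.2 to 50.2 RPKM in HFHS libraries.

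The share of each member in the summed Hipk1, Hipk2 and Hipk3 counts of a library does not depend on scaling between libraries. Hipk2 made up 3.64% (Wilson 95% interval 3.16% to 4.19%) and 3.16% (2.71% to 3.69%) of these counts in the chow libraries. In HFHS libraries 1, 2 and 3 it made up 13.5% (12.7% to 14.4%), 14.4% (13.5% to 15.3%) and 14.9% (14.1% to 15.8%). The share of Hipk1 was 25.6% and 26.8% in chow libraries and 19.8% to 20.7% in HFHS libraries, and that of Hipk3 was 70.8% and 70.1% against 64.4% to 66.6%. The shares of Hipk1 and Hipk3 were thus lower in every HFHS library although their levels were higher. Between those 2 genes, Hipk3 had 2.77 and 2.62 counts per count of Hipk1 in chow libraries and 3.11 to 3.36 in HFHS libraries.

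**Figure D2:**
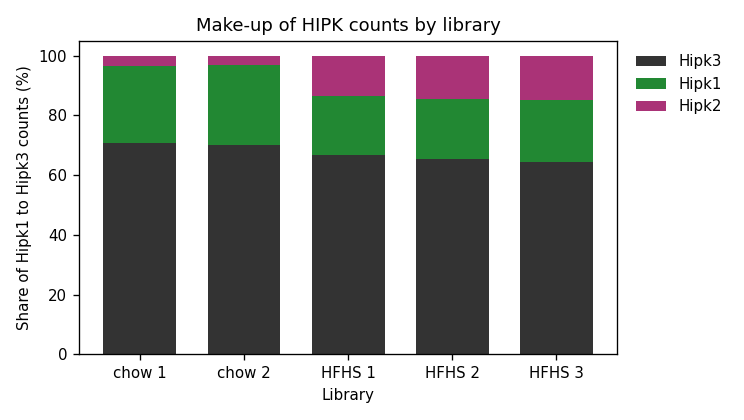
Percent of the summed Hipk1, Hipk2 and Hipk3 counts (vertical axis) taken by each gene in the 5 libraries (horizontal axis), as stacked bars. The Hipk2 segment is 3.16% and 3.64% in chow libraries and 13.5% to 14.9% in HFHS libraries.

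Fold changes in these libraries followed gene length, and all 3 members are long. Over the 14221 tested genes the rank correlation of log2 fold change with exon length was 0.43 and with gene span 0.34; genes are not independent replicates. Hipk1 falls in the longest of 10 equal groups of genes by exon length, where the median log2 fold change was 0.32 and the middle 50% of genes ran from 0.08 to 0.57. Its own 0.26 lay below that median. Hipk2 and Hipk3 fall in group 9, with 6986 to 9234 exonic bases, where the median was 0.21 and the middle 50% ran from -0.05 to 0.45. Both lay above that upper bound, Hipk3 at 0.53 and Hipk2 at 2.70. In 10 groups by span, Hipk2 is in the longest, with a median of 0.23, Hipk3 in group 9, with 0.21, and Hipk1 in group 8, with 0.15. When each library was given offsets from its own smooth trend on exon length and transcript GC content, the log2 fold change of Hipk1 went to -0.04, that of Hipk3 to 0.33 and that of Hipk2 to 2.45. With offsets on exon length alone the values were -0.02, 0.33 and 2.47. The higher level of Hipk1 in HFHS libraries was thus absent with either offset, while Hipk2 and Hipk3 kept their direction. After the offsets on length and GC the rank correlation was 0.03 with exon length and 0.10 with span. What the length trend comes from was not tested.

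**Figure D3:**
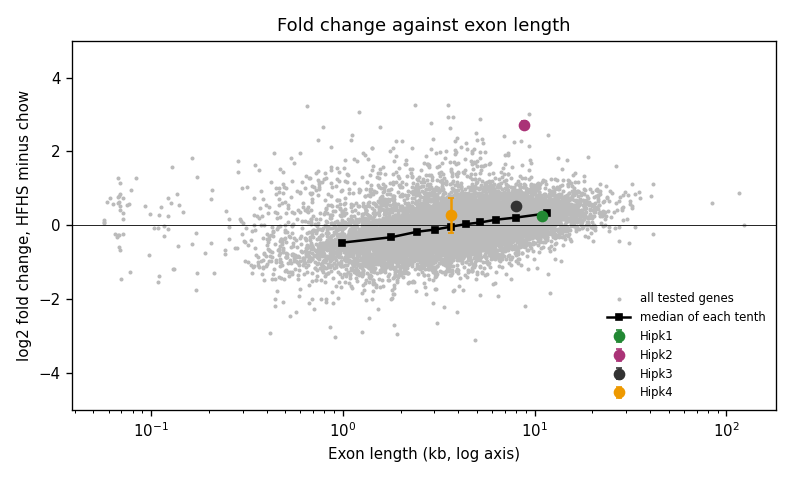
Log2 fold change, HFHS minus chow (vertical axis), against exon length in kb (horizontal log axis) for all 14221 tested genes in grey, with the median of each of 10 length groups as black squares and the HIPK genes as coloured points with SE bars. The medians run from -0.47 to 0.32; Hipk1 lies below the median of its group, Hipk3 above it, and Hipk2 at 2.70.

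**Figure D4:**
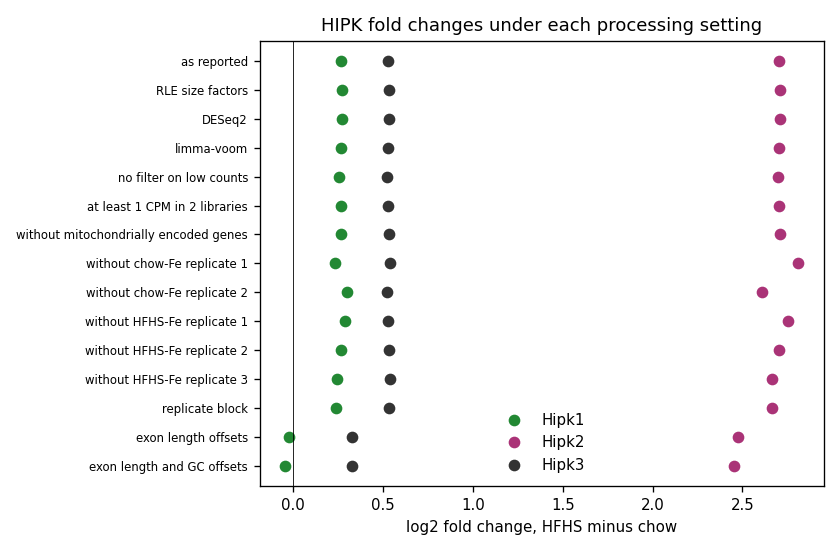
Log2 fold change, HFHS minus chow (horizontal axis), of Hipk1, Hipk2 and Hipk3 as reported and under each of the 14 other processing settings (vertical axis). Hipk2 lies between 2.45 and 2.81 throughout, Hipk3 between 0.33 and 0.54, and Hipk1 between -0.04 and 0.30, below 0 with both offsets.

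The DYRK and CLK kinases and Prpf4b are the nearest relatives of the HIPK genes and share their type of kinase domain. Of 10 listed, 8 were tested, and 3 rose and none fell, which is 37.5% called in either direction. Over all tested genes 38.1% were called in either direction, 19.4% higher and 18.7% lower. Without length offsets the median log2 fold change was 0.24 against -0.01 over all genes. With the length and GC offsets the values were 0.99 for Dyrk1b, 0.70 for Dyrk2, 0.67 for Prpf4b and 0.10 for Dyrk1a. For Clk4, Clk3, Clk2 and Clk1 they were -0.06, -0.08, -0.22 and -0.32. Dyrk1b, a kinase expressed in muscle, was at 6.98 and 5.78 CPM in chow libraries and at 11.0 to 12.7 CPM in HFHS libraries, a rise of 1.84-fold (log2 fold change 0.88, SE 0.150, edgeR adjusted p = 0.000383). Prpf4b, a kinase of the splicing machinery, rose 1.58-fold from 33.4 ± 1.18 to 52.7 ± 3.46 CPM (edgeR adjusted p = 5.57e-05). Dyrk1a, a regulator of growth and of NFAT factors, rose 1.24-fold from 49.9 ± 2.85 to 62.1 ± 3.95 CPM (edgeR adjusted p = 0.00968). The Dyrk1a call was lost without chow replicate 1 (edgeR adjusted p = 0.0682), without HFHS replicate 2 (0.0595) and with the length and GC offsets (0.395); over all its alternatives the p ran from 0.00595 to 0.395. Dyrk2, a kinase of p53, was at 3.84 and 5.94 CPM against 5.68 to 8.31 CPM (edgeR adjusted p = 0.108), and passed without chow replicate 2 (0.0194) and with the length and GC offsets (0.0286; range 0.0194 to 0.574). Clk1, which phosphorylates splicing factors, was at 130.0 ± 2.56 CPM in chow and 119.9 ± 3.97 CPM in HFHS libraries (edgeR adjusted p = 0.217), and was called lower with the same offsets (0.00328; range 0.00321 to 0.432), so that 3 of the list were then higher and 1 lower. The other CLK kinases did not pass either: the log2 fold changes were -0.13 for Clk2, 0.16 for Clk3 and 0.01 for Clk4. Dyrk3 had 0 to 5 counts and Dyrk4 0 to 1, too few to test.

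Genes that control HIPK proteins were mostly not changed by the test, and those that passed went in both directions. Of 20 listed, all tested, 2 rose and 4 fell, or 30.0% against 38.1% of all tested genes, with a median log2 fold change of 0.06. Siah1a, a ubiquitin ligase that marks HIPK2 for degradation, fell from 17.6 ± 1.54 to 11.6 ± 0.559 CPM (log2 fold change -0.60, SE 0.116, edgeR adjusted p = 0.000987). Wsb1, part of another ligase for HIPK2, fell from 29.3 ± 1.56 to 22.6 ± 2.08 CPM (edgeR adjusted p = 0.0106). The Wsb1 call was lost without chow replicate 1 (0.0746) and without HFHS replicate 2 (0.0567; range over the alternatives 0.00351 to 0.0746), and that of Siah1a with the length and GC offsets (0.0545; range 3.85e-05 to 0.0545). Mdm2, a further ligase and a p53 target, was at 57.3 ± 5.46 CPM in chow and 57.5 ± 1.48 CPM in HFHS libraries (edgeR adjusted p = 0.970), and was chosen for mention after its values were seen.

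The kinase gene Atm, which signals DNA breaks and releases HIPK2 from Siah1, rose 2.11-fold, from 4.55 and 4.22 CPM to 8.31, 9.98 and 9.53 CPM (edgeR adjusted p = 0.000192). Its HFHS libraries were all above its chow libraries. The related kinase gene Atr was at 12.9 and 10.8 CPM against 12.4 to 15.7 CPM and did not pass (edgeR adjusted p = 0.156). Fbxo3, a ligase subunit that targets HIPK2, rose 1.20-fold from 84.8 ± 5.58 to 102.1 ± 3.94 CPM (edgeR adjusted p = 0.0142). That call was lost without chow replicate 1 (0.1005), HFHS replicate 1 (0.0514) or HFHS replicate 2 (0.0711) and with the length and GC offsets (0.372; range 0.00527 to 0.393). Casp6, the caspase that can cut HIPK2, was at 9.18 ± 1.04 CPM in chow and 7.26 ± 0.994 CPM in HFHS libraries (edgeR adjusted p = 0.122), and passed as lower with the length and GC offsets (0.0498; range 0.0498 to 0.465).

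Partners and substrates of the HIPK proteins also went both ways. Of 37 listed, 31 were tested; 6 rose and 3 fell, or 29.0% against 38.1% of all tested genes, with a median log2 fold change of 0.05. When the offsets were applied, 7 of them rose and 7 fell; without HFHS replicate 2, 3 rose and 2 fell. The coactivator gene Ep300 rose from 27.5 and 28.0 CPM to 46.7, 45.4 and 49.1 CPM, or 1.70-fold (log2 fold change 0.76, SE 0.0867, edgeR adjusted p = 1.28e-05). With the length and GC offsets its log2 fold change was 0.40 (edgeR adjusted p = 0.00257). Map3k7, which encodes the kinase TAK1, rose 1.35-fold (edgeR adjusted p = 0.000459), and Map3k5, which encodes ASK1, 1.24-fold (0.00924). The Map3k5 call was lost without chow replicate 1 (0.0576), without HFHS replicate 2 (0.0541) and with the length and GC offsets (0.115; range 0.00412 to 0.115). Tcf7l1, a Wnt pathway repressor, rose 1.38-fold (edgeR adjusted p = 0.0281), but its call was lost with DESeq2 (0.07405) and without chow replicate 1 (0.0812), chow replicate 2 (0.0808), HFHS replicate 1 (0.108) or HFHS replicate 2 (0.0672; range 0.0203 to 0.108).

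Mapk3, which encodes the kinase ERK1, fell from 46.4 ± 5.24 to 30.5 ± 1.05 CPM (log2 fold change -0.60, SE 0.0934, edgeR adjusted p = 0.000178). Smad1, a mediator of bone morphogenetic protein signals that HIPK2 can repress, fell from 18.0 ± 3.05 to 12.5 ± 0.715 CPM (edgeR adjusted p = 0.00484), but not without chow replicate 1 (0.0954; range 0.000346 to 0.0954).

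Of the transcription factors most often tied to HIPK2, p53 itself (Trp53) was at 15.7 ± 2.23 CPM in chow and 15.7 ± 0.866 CPM in HFHS libraries (edgeR adjusted p = 0.967). Its target Trp53inp1, a HIPK2 partner, was at 15.7 ± 0.442 and 15.8 ± 2.80 CPM (0.996), and the corepressor gene Ctbp1 at 116.0 ± 1.46 and 118.1 ± 2.63 CPM (edgeR adjusted p = 0.812). Egr3, an immediate early factor, was at 0.271 and 0.0556 CPM in chow and 0.187, 1.005 and 1.014 CPM in HFHS libraries. On library totals, without the TMM adjustment, 3 counts are 0.169 to 0.209 CPM. Egr3 did not pass (edgeR adjusted p = 0.0577). It passed without HFHS replicate 1 (0.0134), with no filter on low counts (0.0238) and with the length and GC offsets (0.0332; range 0.0134 to 0.284). These 4 genes were chosen for mention after their values were seen.

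**Figure D5:**
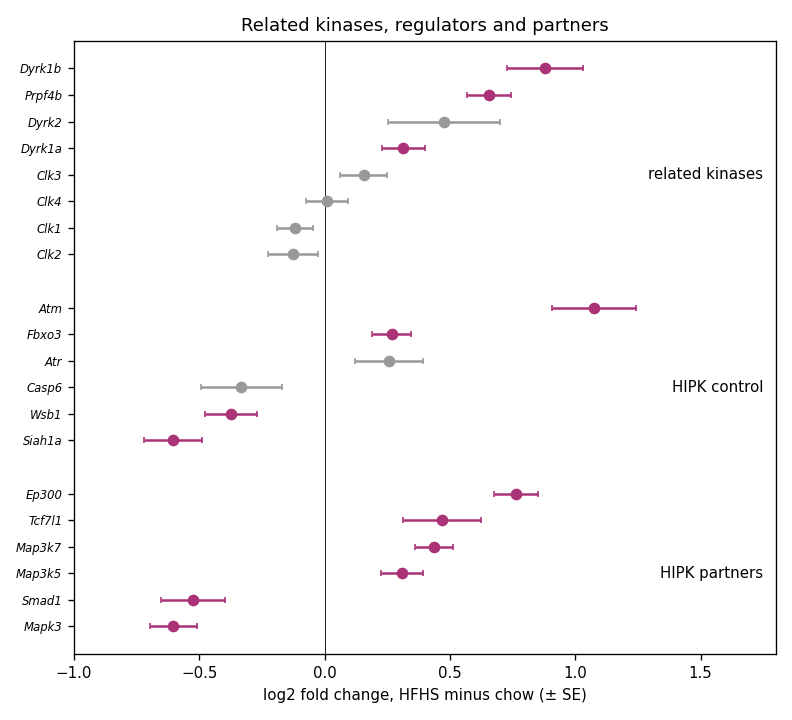
Log2 fold change, HFHS minus chow, with SE (horizontal axis) for the tested related kinases and for genes with the smallest p of the control and partner lists (vertical axis); coloured points passed an edgeR adjusted p of 0.05 and grey points did not. Atm, Dyrk1b and Ep300 lie highest, at 1.08, 0.88 and 0.76, and Siah1a and Mapk3 lie lowest, both at -0.60.

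The genes most like each member over the 5 libraries were those with the smallest root mean square difference of centred log2 CPM, among 10028 other genes at a mean of at least 4 CPM. They were picked on the same libraries, so their differences between diets are given without a test. Nearest to Hipk2 were the nucleotidase gene Nt5c1a (difference 0.164), the sodium-calcium exchanger gene Slc8a1 (0.195), Pdpr, a regulator of pyruvate dehydrogenase phosphatase (0.199), and Gpam, which starts triglyceride synthesis (0.220). Their log2 fold changes were 3.06, 2.33, 2.30 and 2.27, on either side of the 2.70 of Hipk2. Their exon lengths, 1220 to 5028 bases, are all below that of Hipk2. Nearest to Hipk3 were Ibtk (0.0145), Rmnd5a, a ubiquitin ligase subunit (0.0164), and the carnitine carrier gene Slc25a20 (0.0168), with log2 fold changes of 0.51 to 0.54. Nearest to Hipk1 were the GTPase regulator gene Arhgap12 (0.00703), the nuclear import receptor gene Tnpo1 (0.0154), the histone demethylase gene Kdm5b (0.0156) and the Mediator subunit gene Med24 (0.0160), with log2 fold changes of 0.25 to 0.28. The differences are smaller for Hipk1 and Hipk3 than for Hipk2. By log2 fold change Hipk2 ranked 13 of 14221 genes, Hipk3 1751 and Hipk1 3904. Genes of like fold change are fewer near an extreme, so nothing is read from this order.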

How the data were processed

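The values are raw counts per gene as deposited by the authors, 1 table per library, with exon coordinates and exon length per the file headers. Per the submitters' processing notes, the tools were STAR 2.5.2b, Trimmomatic 0.36 and featureCounts (Subread 1.5.2), on GRCm38. The strand setting and the annotation release were not given in the sources used here. Symbols came from GENCODE M21, which holds 49056 of the 49315 genes. The test was edgeR 4.0.16 under R 4.3.3 (filterByExpr, TMM, glmQLFit and glmQLFTest on diet, Benjamini-Hochberg adjusted p of 0.05 over 14221 genes). The fit was also run on simulated data with far fewer changed genes and no length trend, so that check does not cover these features. Each SE is the coefficient divided by the root of F, an approximation. No pair of libraries differed by as little as sampling noise (chi-square per degree of freedom 2.64 or more).

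The members and lists were chosen with earlier results of these data known. Named genes were the HIPK genes, all tested relatives, the 8 genes of smallest p in the control and partner lists, and the 4 genes most like each member, leaving out predicted genes; others are said to be chosen later. Some genes that the rule names are not reported here. Alternatives were RLE size factors, DESeq2 1.42.0, limma-voom (limma 3.58.1), other filters, mitochondrial genes left out, each library left out, the replicate number as a block, a threshold of 0.01, and offsets from smooth trends (mgcv 1.9.3) on exon length and on GC content, known for 99.8% of tested genes.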

Additional observations from a re-analysis of the deposited data

How the results depend on the processing

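Of the 14221 genes tested, 5417 passed. The log2 fold changes of Hipk1, Hipk2 and Hipk3 moved by less than their spread between replicates under other size factors, DESeq2, limma-voom, other filters, without mitochondrial genes and with the replicate block; the cause of the moves below was not tested. Exon length offsets gave -0.024 for Hipk1, 2.47 for Hipk2 and 0.33 for Hipk3, and length and GC offsets -0.045, 2.45 and 0.33. Leaving out 1 library gave 0.23 to 0.30, 2.61 to 2.81 and 0.52 to 0.54, and 4248 to 4929 genes called. Partner genes called went from 9 to 14 with either offset and to 5 to 9 with a library left out; related kinases went from 3 to between 2 and 4, and control genes from 6 to between 4 and 6.

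The titles number libraries of both groups, but nothing says that a number marks a shared mouse or day. Same-numbered libraries deviated together with r of 0.03 (both pairs, across genes). With the replicate number as a block 5332 genes passed, and the log2 fold changes were 0.24 for Hipk1, 2.66 for Hipk2 and 0.53 for Hipk3.

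Other genes changed sign. Ubn2, which passed at 0.43 (edgeR adjusted p = 0.00545), was at -0.044 with length offsets and -0.015 with length and GC offsets. With the same offsets Atr went from 0.26 to -0.24 and -0.29, Kdm5b from 0.28 to -0.12 and -0.12, and Clk3 from 0.16 to -0.063 and -0.082. Clk4, at 0.01, was at -0.10 and -0.064 with them, and between -0.066 (without chow replicate 1) and 0.0899 with 1 library left out (-0.01 without HFHS replicate 1). Levels near 3 counts (0.169 to 0.209 CPM on library totals, without the TMM adjustment) limit Egr3 and Hipk4. Egr3 had no value with DESeq2, with a minimum of 1 CPM in 2 libraries, or without HFHS replicate 2 or 3.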
